A study of Mus musculus with 2 samples.

Results

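In the mouse B cell line CH12.LX, 9 genes that write, keep, oxidise, remove or read methylated cytosine were followed: Dnmt1, Uhrf1, Dnmt3a, Dnmt3b, Tet1, Tet2, Tet3, Tdg and Mbd2. They were chosen by name, as a list of known enzymes and cofactors, with earlier results of these data known. By Ensembl gene identifier they were matched in the deposited gene tables, where they are 9 of 43346 genes. CH12.LX is an immortalised B-cell lymphoma line of strain B10.H-2aH-4bp/Wts, labelled female, with age and developmental stage given as unknown. Polyadenylated RNA was sequenced from single ends in 2 libraries, biological replicates 1 and 2, each from its own biosample. The labels name no treatment, second line or other condition, so the data describe levels in 1 line and how far its libraries differed. As both replicates are of 1 line, the spread between them does not extend to other B cells.

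Methyl groups on cytosine, mostly at CpG dinucleotides, are copied onto the new DNA strand after replication by DNMT1, which UHRF1 brings to half-methylated sites. DNMT3A and DNMT3B place new methyl groups, and the TET enzymes oxidise 5-methylcytosine to forms that the glycosylase TDG can cut out for repair. MBD2 binds methylated CpG sites and brings the NuRD chromatin remodelling complex to them. DNMT3A and TET2 are well known as genes mutated in blood cancers, and TET2 and TET3 act during B cell development.

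Replicate 1 held 22996547 expected counts and replicate 2 held 25715408. The B cell markers Cd79a, Cd79b, Ms4a1, Pax5 and Ebf1 were detected, with means between 31.9 and 535 TPM, a measure of transcript abundance that corrects for transcript length. Among markers of T, myeloid, erythroid, stromal, epithelial, germ and stem cells, Cd3d, Itgam and Epcam passed 1 TPM in both libraries, at means of 1.39, 1.51 and 1.22 TPM. The myeloid marker Ly6g had 0 counts in replicate 1 and 1 in replicate 2, and the erythroid marker Hbb-bs had 0 in both.

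The maintenance pair, the excision enzyme and the reader Mbd2 stood highest, the de novo enzymes, Tet2 and Tet3 lower, and Tet1 lowest, under the detection threshold. A level of at least 1 TPM in each library was taken as detection. By that rule 8 of the 9 members were detected, beside 48.0% of 21474 protein-coding genes, and Tet1 was not. The median of the members' mean levels was 45.4 TPM, against 0.768 TPM over protein-coding genes. By mean TPM the order was Uhrf1, Dnmt1, Tdg, Mbd2, Dnmt3a, Tet2, Dnmt3b, Tet3 and Tet1. Neighbours whose values overlapped between the libraries were Dnmt1 and Tdg, Tdg and Mbd2, and Dnmt3b and Tet3. The other 5 neighbouring pairs were separate in both libraries.

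**Figure D1:**
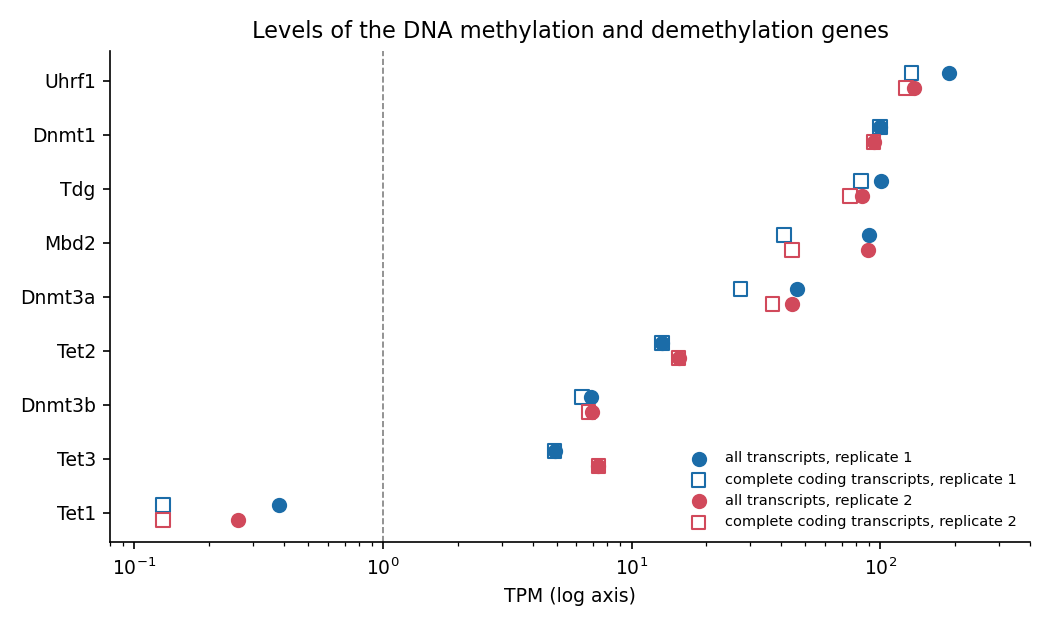
Level of each member in TPM on a log axis, with a filled circle for all annotated transcripts and an open square for those annotated with a complete coding sequence, in blue for replicate 1 and red for replicate 2. The dashed line is the detection threshold of 1 TPM, and Tet1 alone lies below it; the circles of Uhrf1 lie at 189 and 136 TPM while its squares lie at 134 and 127.

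Uhrf1 (ENSMUSG00000001228, chr17:56303321-56323486, plus strand) stood at 189 TPM in replicate 1 and 136 TPM in replicate 2 (163 ± 37.0, SD, n = 2). It was the highest member in both libraries, and its 2 TPM values lay further apart than those of Dnmt1, Tdg or Mbd2. The expected counts behind these levels were 7986 in both libraries. The gap in TPM came with the length that the deposited tables assign to the gene, an effective length of 2583 bases in replicate 1 and 3215 bases in replicate 2. That length is an average over transcripts, and Uhrf1-207, an annotated fragment of 529 bases, took 24.2% of the gene's TPM in replicate 1 and 0.59% in replicate 2. As a share of the gene's counts the same fragment took 4.58% and 0.0899%. Over the 4 transcripts with a complete coding sequence, Uhrf1 stood at 134 and 127 TPM (130 ± 4.89, SD, n = 2), still above every other member in both libraries.

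The complete Uhrf1 transcripts encode proteins of 782 or 774 residues. The form of 782 residues held 59.6% of the gene's TPM in replicate 1 and 56.7% in replicate 2, and the form of 774 residues held 11.3% and 36.3%. Among single transcripts, Uhrf1-204 held 32.3% and 43.5%, Uhrf1-203 held 9.78% and 34.8%, and Uhrf1-201 held 27.3% and 13.3%. The shares of Uhrf1-203 and Uhrf1-201 thus stood in opposite order in the libraries, with no test. Neither Uhrf1-204 nor Uhrf1-203 has a single run of 36 bases found in no other Uhrf1 transcript.

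Dnmt1 (ENSMUSG00000004099, chr9:20907209-20959888, minus strand) stood at 100.1 TPM in replicate 1 and 94.1 TPM in replicate 2 (97.1 ± 4.24, SD, n = 2), from 8647 and 9023 counts. It held 65.2% and 64.8% of the summed TPM of the 3 DNA methyltransferase genes, which was 153 and 145 TPM. All of its TPM lay on transcripts with a complete coding sequence. These transcripts start at different first exons, and the deposited estimates split the gene between a pair of them.

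The transcript Dnmt1-202 starts 6909 bases upstream of Dnmt1-201 and is annotated with a protein of 1501 residues, against 1620 for Dnmt1-201. The upstream first exon is known from oocytes, whose DNMT1 lacks the N-terminal part of the somatic protein. In replicate 1 the upstream transcript Dnmt1-202 held 51.7% of the gene's TPM, and in replicate 2 it held 58.7%. Dnmt1-201, the somatic form, held 47.4% and 40.4%, and Dnmt1-203 held 0.96% and 0.84%. These transcripts differ mainly in their first exons, of 156 bases in Dnmt1-202 and 272 bases in Dnmt1-201. Of 5213 runs of 36 bases in Dnmt1-202, 154 occur in no other transcript of the gene, and of 5332 in Dnmt1-201, 309 do. The posterior SD of the count was 303 and 261 reads for Dnmt1-202, beside posterior mean counts of 4503 and 5236. Reads on the first exons themselves are not part of the tables, so use of the upstream start was not tested.

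The 250 bases before both starts are shown because the 2 leading transcripts differ in where they begin. They are from the RefSeq promoter windows on GRCm38.p6, on the minus strand and written 5′ to 3′, with CpG in capitals.
Dnmt1 upstream start, chr9:20959889-20960138: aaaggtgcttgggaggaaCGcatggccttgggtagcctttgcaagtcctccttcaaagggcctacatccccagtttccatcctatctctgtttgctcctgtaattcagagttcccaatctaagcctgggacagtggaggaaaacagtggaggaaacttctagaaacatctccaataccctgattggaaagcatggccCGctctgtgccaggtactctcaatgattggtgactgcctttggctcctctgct
Dnmt1 somatic start, chr9:20952980-20953229: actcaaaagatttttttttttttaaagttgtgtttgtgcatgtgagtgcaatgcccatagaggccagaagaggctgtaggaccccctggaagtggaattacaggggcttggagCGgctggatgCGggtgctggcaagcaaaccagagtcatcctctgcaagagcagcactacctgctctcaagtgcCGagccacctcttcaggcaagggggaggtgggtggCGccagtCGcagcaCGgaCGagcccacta
The upstream window holds 2 CpG and the somatic window 7, where a CpG is the letters CG and reads the same on both strands. At least 2 CpG are found in 81.2% of the 32817 RefSeq windows and at least 7 in 46.3%, with a median of 6. The window before the start of Dnmt1-203, chr9:20952624-20952873, holds 26, a number reached by 9.60% of windows. It overlaps the first exon of Dnmt1-201, chr9:20952708-20952979, and so lies downstream of the somatic start. These are sequence counts, and methylation of the windows was not measured.

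Dnmt3a (ENSMUSG00000020661, chr12:3806007-3914443, plus strand) was the more abundant of the de novo enzymes, at 46.5 TPM in replicate 1 and 44.3 TPM in replicate 2 (45.4 ± 1.54, SD, n = 2). It held 30.3% and 30.5% of the DNA methyltransferase TPM, and Dnmt3b held 4.49% and 4.76%. In TPM over all annotated transcripts, the shares of all 3 genes moved by less than 1 percentage point between the libraries. By counts they moved more, with Dnmt1 at 62.8% in replicate 1 and 60.8% in replicate 2, and Dnmt3a at 34.2% and 35.95%. Complete coding transcripts alone gave Dnmt1 100.1 and 94.1 TPM, so the steady shares do not carry over to them. Within Dnmt3a, transcripts with a complete coding sequence held 58.9% of the TPM in replicate 1 and 83.2% in replicate 2, or 27.4 and 36.8 TPM. Dnmt3a-215, annotated for nonsense-mediated decay, took 24.8% in replicate 1 and 0 in replicate 2, from 486 and 0 expected counts. Its posterior mean counts were 419 and 71.5, with SDs of 75.1 and 58.3, so the size of that gap depends on the estimate.

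The long protein of 908 residues, encoded by Dnmt3a-201 and Dnmt3a-218, held 54.8% of the gene's TPM in replicate 1 and 62.6% in replicate 2. The short form of 689 residues, known as Dnmt3a2 and for its use in embryonic stem and germ cells, starts 84698 bases downstream and held 4.15% and 20.5%. By posterior means the short form held 6.38% and 14.1%, which keeps its order in the libraries but narrows the gap. As a share of the gene's counts it held 1.87% and 7.12%. Most of it was Dnmt3a-205, at 3.51% and 20.5% of TPM, and the partial transcript Dnmt3a-210 held 0 and 13.3%. The posterior mean counts of Dnmt3a-205 were 101 in replicate 1 and 272 in replicate 2, with SDs of 54.1 and 67.0. Of 2293 runs in Dnmt3a-205, 16 occur in no other transcript of the gene. Use of the downstream start was not tested. The long form was the leading one in both libraries by TPM, posterior mean and counts. The 250 bases before both starts are given because the forms differ in where they begin. They are from the same RefSeq table, on the plus strand, with CpG in capitals, and the RefSeq starts lie within 50 bases of those of the transcripts.
Dnmt3a long start, chr12:3806730-3806979: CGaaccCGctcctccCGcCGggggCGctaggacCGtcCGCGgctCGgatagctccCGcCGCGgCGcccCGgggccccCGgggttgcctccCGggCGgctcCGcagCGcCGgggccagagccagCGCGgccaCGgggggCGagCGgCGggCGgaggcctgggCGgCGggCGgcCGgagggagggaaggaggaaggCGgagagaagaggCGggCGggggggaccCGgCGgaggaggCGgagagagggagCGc
Dnmt3a short start, chr12:3891494-3891743: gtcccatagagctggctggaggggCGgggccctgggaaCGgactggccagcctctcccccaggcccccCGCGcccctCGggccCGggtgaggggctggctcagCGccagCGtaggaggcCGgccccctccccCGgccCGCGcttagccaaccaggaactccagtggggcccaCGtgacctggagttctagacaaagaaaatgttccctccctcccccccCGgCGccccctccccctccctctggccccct
The window of the long form holds 38 CpG, a number reached by 1.88% of all windows, and that of the short form holds 15, reached by 27.3%.

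Dnmt3b (ENSMUSG00000027478, chr2:153649450-153687730, plus strand) stood at 6.89 TPM in replicate 1 and 6.92 TPM in replicate 2 (6.91 ± 0.0212, SD, n = 2), from 417 and 476 counts. It was the lowest DNA methyltransferase in both libraries. Its 10 complete coding transcripts encode proteins of 860, 859, 839, 796 and 776 residues. The shortest protein, of 776 residues, lacks an exon of 20 residues and a pair of neighbouring exons of 63 residues in all, and is known as a form without methyltransferase activity of its own. It held 73.7% of the gene's TPM in replicate 1 and 66.3% in replicate 2, all on Dnmt3b-206, and by posterior means 57.0% and 46.6%. The protein of 860 residues held 7.70% and 30.5%, with Dnmt3b-207 at 0 and 21.5% and Dnmt3b-201 at 7.71% and 9.08%, and the proteins of 859 and 796 residues were at 0 in both libraries by TPM. The protein of 839 residues, on Dnmt3b-209, held 10.5% in replicate 1 and 0 in replicate 2.

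The exons that set the shortest form apart are given in capitals, with 15 bases of the neighbouring exons on each side in lower case, from the GENCODE M21 transcripts on GRCm38, plus strand.
Dnmt3b exon, chr2:153670849-153670908: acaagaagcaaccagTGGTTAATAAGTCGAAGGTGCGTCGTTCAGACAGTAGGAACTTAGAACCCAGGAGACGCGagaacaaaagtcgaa
Dnmt3b exon, chr2:153683608-153683677: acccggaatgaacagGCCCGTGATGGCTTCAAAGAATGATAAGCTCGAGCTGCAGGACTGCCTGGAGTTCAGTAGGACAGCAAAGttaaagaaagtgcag
Dnmt3b exon, chr2:153684359-153684477: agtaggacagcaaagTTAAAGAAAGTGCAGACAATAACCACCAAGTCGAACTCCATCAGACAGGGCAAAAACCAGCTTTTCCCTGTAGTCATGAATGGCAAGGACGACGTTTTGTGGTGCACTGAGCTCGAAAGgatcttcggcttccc
Where they are skipped, the exon before, in lower case, joins the exon after, in capitals, with 20 bases shown of each.
Dnmt3b join over 60 bases: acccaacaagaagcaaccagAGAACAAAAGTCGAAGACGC
Dnmt3b join over 189 bases: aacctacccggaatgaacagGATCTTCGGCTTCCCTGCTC
Transcripts with the join over 189 bases held 80.2% of the complete coding TPM of Dnmt3b in replicate 1 and 68.5% in replicate 2, and by posterior means 71.4% and 59.0%. Those with the join over 60 bases held 91.6% and 68.5%, and by posterior means 78.1% and 60.1%. Each complete Dnmt3b transcript is a different mix of shared parts, and none has a run of 36 bases of its own. The split rests on 411 and 473 counts over the 10 transcripts.

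**Figure D2:**
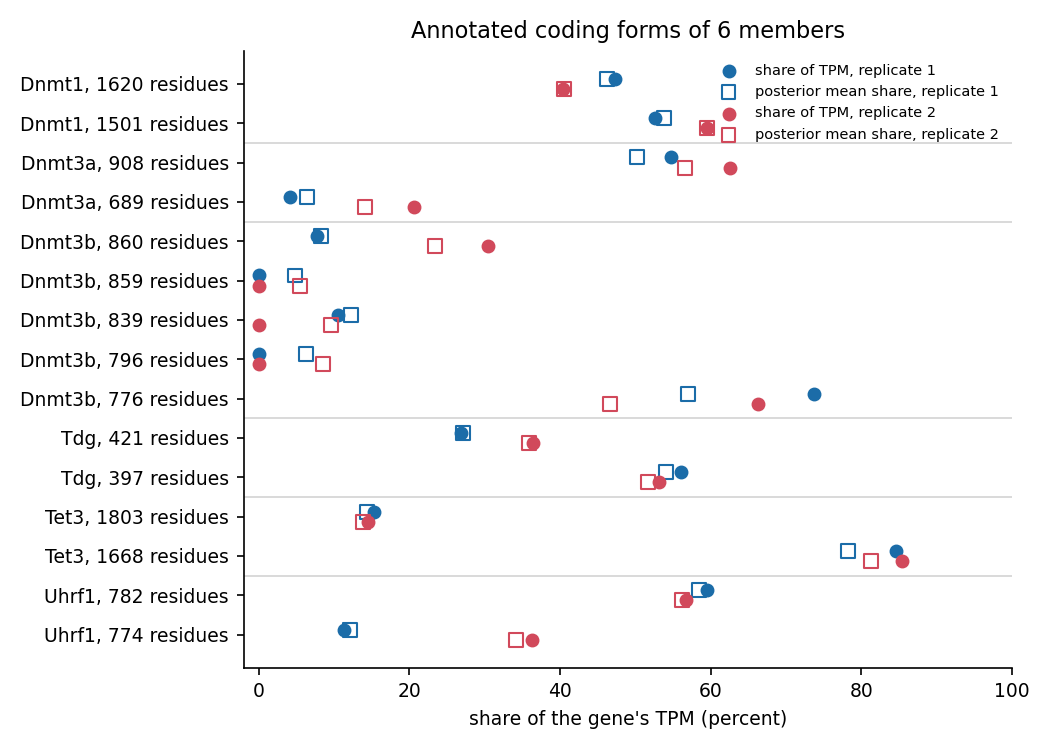
Share of each gene's TPM, in percent, on annotated coding forms of 6 members, with filled circles for the deposited share and open squares for the share from posterior means, in blue for replicate 1 and red for replicate 2. The Dnmt1 forms lie close in both estimates, the Tet3 form of 1668 residues lies lower by posterior means, and the Dnmt3b form of 776 residues lies at 73.7% and 66.3% by one estimate and at 57.0% and 46.6% by the other.

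Tet2 was the leading TET gene, Tet3 followed, and Tet1 was under 1 TPM. Tet2 (ENSMUSG00000040943, chr3:133463679-133545139, minus strand) stood at 13.3 TPM in replicate 1 and 15.4 TPM in replicate 2 (14.4 ± 1.55, SD, n = 2), from 1986 and 2572 counts. It held 71.5% and 67.0% of the summed TPM of the TET genes, which was 18.5 and 23.1 TPM. The only Tet2 transcript in the tables encodes 1912 residues. The 250 bases before its start hold 51 CpG, a number reached by 0.0670% of all RefSeq windows. It is the highest among the 8 members with a window, which leave out Mbd2.

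Tet3 (ENSMUSG00000034832, chr6:83362373-83459084, minus strand) stood at 4.90 TPM in replicate 1 and 7.35 TPM in replicate 2 (6.13 ± 1.73, SD, n = 2), from 811 and 1358 counts. It held 26.4% and 31.9% of the TET TPM. In replicate 1 it lay below Dnmt3b and in replicate 2 above it. Tet3-202, which encodes 1668 residues, held 84.8% and 85.5% of the gene's TPM, and Tet3-203, which encodes 1803 residues and the CXXC DNA binding domain, held 15.2% and 14.5%. By posterior means Tet3-202 held 78.1% and 81.2%, and Tet3-203 held 14.4% and 13.9%. Tet3-202 was the leading transcript in both libraries by either estimate. Tet3-202 has 5669 runs of 36 bases of its own and Tet3-203 has 832, and the posterior SD of the count of Tet3-202 was 8.63 and 13.4 reads.

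Tet1 (ENSMUSG00000047146, chr10:62804570-62908996, minus strand), the TET enzyme best known from embryonic stem cells, stood at 0.38 TPM in replicate 1 and 0.26 TPM in replicate 2 (0.320 ± 0.0849, SD, n = 2), from 36 and 35 counts. By posterior means its level was 0.75 and 0.60 TPM, also under 1 TPM but more than 1.5 times higher. It held 2.05% and 1.13% of the TET TPM, or 4.13% and 2.67% by posterior means, and 53.9% of protein-coding genes had a higher mean. Tet1-201 held 35.2% of its TPM in replicate 1 and 51.8% in replicate 2, Tet1-202 held 35.7% and 0, and Tet1-205 held 29.1% and 0. Tet1-204 held 0 in replicate 1 and 48.2% in replicate 2, the latter from 1.30 counts, so the leading transcript differed between the libraries. On the 2 complete coding transcripts the level was 0.13 TPM in both libraries. Shares within Tet1 are therefore not resolved at this depth. Tet1 was the only one of the 9 members whose leading transcript changed.

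Tdg (ENSMUSG00000034674, chr10:82629828-82650799, plus strand), the glycosylase that removes oxidised methylcytosine, stood at 101 TPM in replicate 1 and 84.5 TPM in replicate 2 (92.8 ± 11.7, SD, n = 2), from 4503 and 4465 counts. It thus lay above Tet2 in both libraries. Tdg-201, with 397 residues, held 56.1% and 53.1% of its TPM, and Tdg-208, with 421 residues and a coding sequence that begins in its first exon, held 26.9% and 36.4%. A partial transcript of 971 bases, Tdg-210, held 14.9% and 8.19%. Over complete coding transcripts Tdg stood at 83.8 and 75.6 TPM.

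Mbd2 (ENSMUSG00000024513, chr18:70568189-70626131, plus strand), the methyl-CpG reader, stood at 90.3 TPM in replicate 1 and 89.3 TPM in replicate 2 (89.8 ± 0.735, SD, n = 2), from 1688 and 1951 counts. Under 50% of that TPM lay on complete coding transcripts, 45.5% in replicate 1 and 49.4% in replicate 2, or 41.1 and 44.1 TPM. The leading one, Mbd2-201 with 414 residues, held 45.4% and 49.0%. Mbd2-204, a retained intron transcript of 494 bases, held 42.6% and 37.0%, and Mbd2-203, annotated for nonsense-mediated decay, held 11.2% and 13.3%. By counts the complete coding transcripts held 76.2% and 78.6%, since a short transcript reaches a high TPM with few reads. Mbd2 was the only detected member with a larger part of its TPM off the complete coding transcripts than on them in both libraries.

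**Figure D3:**
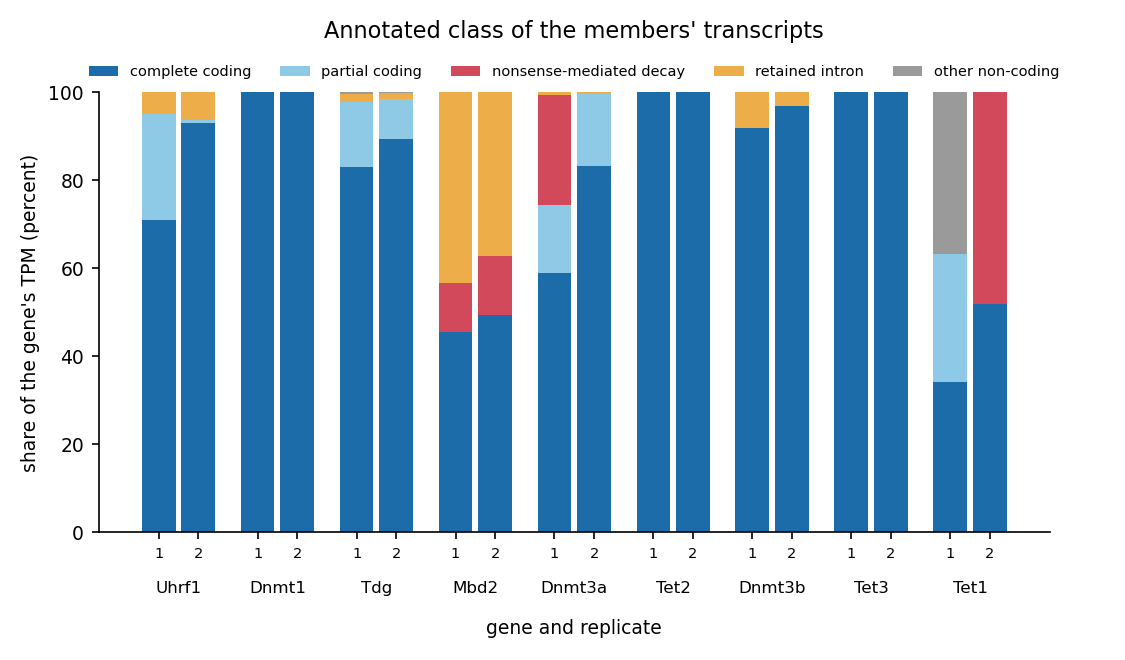
Share of each gene's TPM, in percent, by annotated transcript class, as stacked bars for replicates 1 and 2 of every member. Dnmt1, Tet2 and Tet3 are wholly on complete coding transcripts, and Mbd2 is at 45.5% and 49.4%; the bars of Tet1 rest on 36 and 35 counts.

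Of the 67 annotated member transcripts, 30 have a complete coding sequence. These held 74.4% of the members' summed TPM in replicate 1 and 85.1% in replicate 2. On this scale the order of the members stayed as it was, with Uhrf1, Dnmt1, Tdg, Mbd2 and Dnmt3a at means of 130, 97.1, 79.7, 42.6 and 32.1 TPM. With all reads of a gene set to the effective length of its leading complete transcript, an alternative added after the values were seen, the order also stayed. Uhrf1 then stood at 145 and 131 TPM, Mbd2 at 53.9 and 56.0 and Dnmt3a at 29.8 and 30.3.

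The posterior SD of the gene count was under 5% of the posterior mean for all 9 members in both libraries, and highest for Tdg at 0.254% and 0.215%. All runs of 36 bases in Dnmt1, Tet3 and Mbd2 transcripts occur in no other gene, and so do 9143 of 9144 in Tet2. The share was 99.8% for Tet1 and 98.7% for Dnmt3a. The share was 87.6% for Dnmt3b, 78.5% for Uhrf1 and 54.0% for Tdg, which have near copies.

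The copies of Dnmt3b, Tdg and Uhrf1 with values in the tables held few reads. Dnmt3c, a de novo methyltransferase gene of the male germ line that shares 645 of the 5200 runs of Dnmt3b, had 0 and 1.32 counts. Processed pseudogenes of Tdg with values were Tdg-ps with 0.64 and 10.9 counts, Gm9855 with 27.9 and 19.7 and Gm5597 with 0 in both, a further one on chromosome 19 was not analysed here, and those of Uhrf1 were Gm5648 with 24.1 and 10.6 and Gm15953 with 4.51 and 2.19. Appbp2, a gene that shares 48 runs with Dnmt3a, had 2835 and 3146 counts of its own. How the authors' tool splits reads between near copies is not given, so values of Tdg and Uhrf1 are less certain than their counting intervals. On the opposite strand, Dnmt3aos, which overlaps 133 exonic bases of Dnmt3a, had 2 and 0 counts, and Glt8d2, which overlaps 367 exonic bases of Tdg, had 1 in each. Whether the counting used strand is not stated, so reads of such partners cannot be told apart from those of the members.

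The libraries differed in 5 members beyond counting error. Rounded expected counts were compared by a two-sided exact binomial test against effective library sizes, with Benjamini-Hochberg adjustment over 15340 genes with at least 10 counts. This compares 1 library with 1 library, holds counting error only and is no test of a condition. By that test 30.6% of all genes were called, 14.6% higher in replicate 2 and 15.9% lower. The share called depends on depth. With a minimum of 100 counts, which 8 members passed, 4215 of 11046 genes were called, against 4693 of 15340 here. The 30.6% is thus a low background for genes with many counts. Of the 9 members, 2 were called higher, Tet2 and Tet3, and 3 lower, Uhrf1, Dnmt1 and Tdg. The median log2 ratio of the members was 0.04, beside 0.00 over all tested genes.

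Tet3 had the largest difference, a log2 ratio of replicate 2 over replicate 1 of 0.61 with an exact 95% interval of 0.48 to 0.73 and an adjusted p of 2.3e-20 in the exact binomial test. Among 10099 genes averaging 100 counts or more, 4.05% reached a log2 ratio of 0.5 in size and 2.98% had a larger one than Tet3. Of the 8 members at that depth, Tet3 alone reached 0.5. Tet2 had a log2 ratio of 0.24, with an exact interval of 0.15 to 0.32 and an adjusted p of 4.22e-07. Both detected TET genes were thus higher in replicate 2. The B cell markers Cd79a, Cd79b, Ms4a1, Pax5 and Ebf1 were also called higher in that library, with log2 ratios from 0.07 for Cd79b to 0.53 for Pax5, and their part in this result was not tested.

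The called members of the maintenance and excision steps were slightly lower in replicate 2. The log2 ratio was -0.14 for Uhrf1, with an exact interval of -0.18 to -0.09, -0.08 for Dnmt1, with -0.12 to -0.03, and -0.15 for Tdg, with -0.21 to -0.09. Their adjusted p values in the exact binomial test were 2.44e-08, 0.00257 and 8.43e-06. Larger ratios in size than these were found in 46.0%, 67.4% and 42.2% of those 10099 genes.

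Mbd2, Dnmt3a, Dnmt3b and Tet1 were not called. Their log2 ratios were 0.07, 0.04, 0.05 and -0.18, with exact intervals of -0.02 to 0.17, -0.01 to 0.10, -0.14 to 0.25 and -0.89 to 0.53. The interval of Tet1 is the widest of all members and leaves room for changes of either sign. From TPM in place of counts, the log2 ratio of Uhrf1 was -0.47, that of Tdg -0.26 and that of Tet1 -0.55, and those of Dnmt3a and Mbd2 turned to -0.069 and -0.017.

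With a spread between libraries estimated over all genes, a coefficient of variation of 19.8% by edgeR's common dispersion, no member was called by the negative binomial exact test, and none had an unadjusted p under 0.05. That test called 2.54% of all genes. With both libraries as 1 group, the difference between them is itself the source of that spread.

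**Figure D4:**
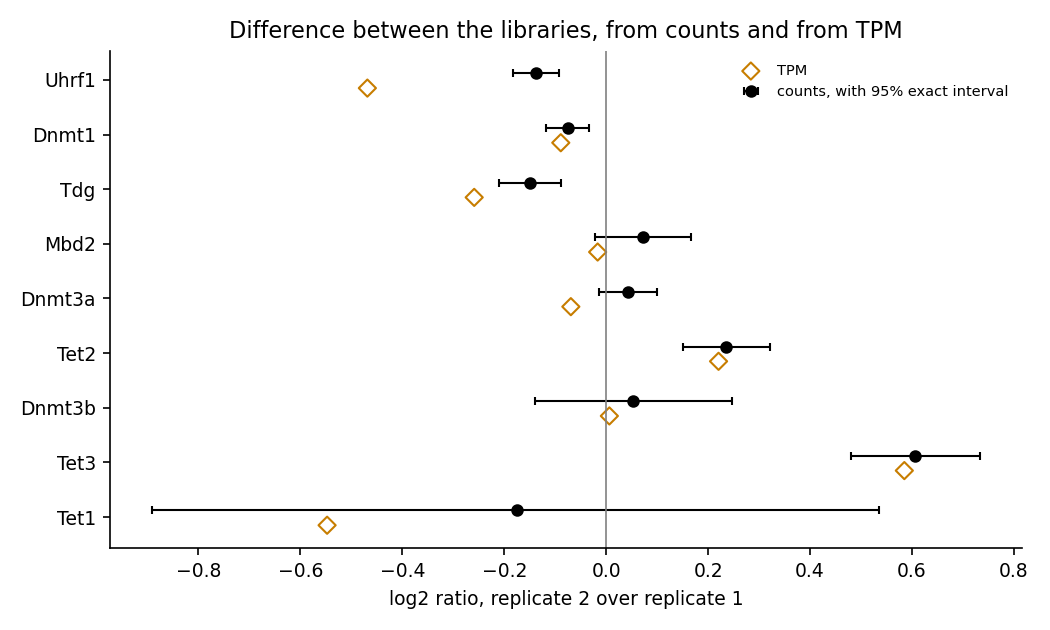
The log2 ratio of replicate 2 over replicate 1 for each member, as black points from counts with exact 95% intervals for counting error and as open diamonds from TPM. Tet2 and Tet3 lie to the right at 0.24 and 0.61, Uhrf1, Dnmt1 and Tdg lie to the left, and the diamond of Uhrf1 at -0.47 lies outside its interval from counts.

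Most of the genes listed around the members were expressed. In 6 lists of such genes 56 of 63 distinct genes were detected, beside 48.0% of all protein-coding genes. The lists were chosen with earlier results of these data known, so these shares are not a test of the lists. For each list, calls between the libraries by the exact binomial test are given beside 30.6% called over all genes. That share was higher among genes with at least 100 counts, so a list of well counted genes can exceed it through depth alone. The negative binomial exact test called 0 genes in each of these lists, beside 2.54% of all genes, a share at which few calls arise in lists this short.

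Of 12 genes listed around maintenance and de novo methylation, 9 were detected, at a median of 33.3 TPM. Trim28, the corepressor that directs methylation to repeats and imprints, led at 463 and 499 TPM in replicates 1 and 2, followed by the replication clamp Pcna at 430 and 405. Those not detected were Dppa3 with 1 and 0 counts, Dnmt3l, the germ cell partner of the de novo enzymes, with 2 in each library, and the imprinting factor Zfp57 with 3 and 4. The exact binomial test called 5 of the 9 tested, 2 higher in replicate 2 and 3 lower, beside 30.6% of all genes.

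The 9 other genes listed as methyl-CpG readers, of the MBD and zinc finger families, were all detected. Membership of these families does not by itself show binding to methylated CpG, which was not measured for any of them. Their median of 10.3 TPM lay below Mbd2, but Mbd3 lay above Mbd2 in both libraries. Mbd3, which sits in NuRD in place of Mbd2, stood at 103 and 96.1 TPM and the zinc finger reader Zbtb38 at 41.0 and 38.0. The test called 1 of the 9, higher in replicate 2, beside 30.6% of all genes. All 12 NuRD genes were detected, at a median of 108 TPM, with the histone binding subunit Rbbp7 at 507 and 422 TPM and the deacetylase Hdac1 at 178 and 169. The exact binomial test called 7 of them, 2 higher in replicate 2 and 5 lower, beside 30.6% of all genes.

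Of 10 TET cofactors and regulators, 9 were detected, at a median of 11.0 TPM. Idh3a, a subunit of the enzyme that makes 2-oxoglutarate, stood at 125 and 116 TPM, and Ogt, the sugar transferase that binds TET proteins, at 43.8 and 45.9. Cxxc4, which encodes a CXXC partner of TET2, had 1 and 5 counts and was not detected. The exact binomial test called 5 of the 9 tested, 3 higher and 2 lower, beside 30.6% of all genes.

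Of 14 genes listed with base excision repair, 12 were detected, at a median of 25.9 TPM. They were led by the endonuclease Apex1 at 281 and 267 TPM and Parp1, which senses strand breaks, at 267 and 229. The glycosylases Neil1, with 3 counts in each library, and Neil2, with 2 and 4, were not detected. The test called 4 of 12, 1 higher and 3 lower, a share near the 30.6% of all genes. Of 8 genes of S-adenosylmethionine supply, the methyl donor, 7 were detected, at a median of 69.2 TPM. Ahcy, which clears the product of methylation, stood at 350 and 291 TPM and Mat2a, which makes the donor, at 267 and 263. The liver gene Mat1a had 0 and 1 counts. The exact binomial test called 2 of the 7 tested, 1 in each direction, a share near the 30.6% of all genes.

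**Figure D5:**
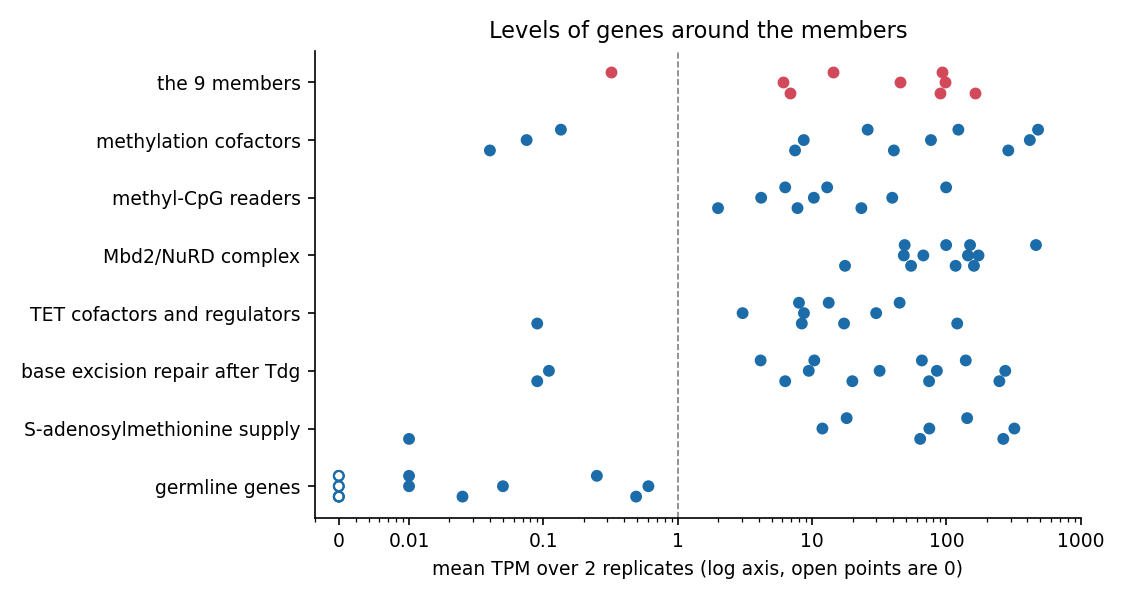
Mean TPM over both replicates on a log axis, with 1 point per gene for the 9 members in red and for 7 lists in blue; open points stand for genes at 0, and the dashed line marks 1 TPM. All NuRD genes and all genes listed as methyl-CpG readers lie to the right of the line, and none of the germline genes does.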

How the data were processed

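Polyadenylated RNA of 2 CH12.LX libraries was measured. Per the deposited notes, the tables rest on transcriptome alignments to mm10 with GENCODE M4, with aligner and quantification tool not given in the sources used here. Values deposited by the authors are expected counts (estimated read counts, not scaled), TPM, FPKM and the percent of each gene's TPM on each transcript, per the file headers, with posterior mean versions. Names and coordinates came from GENCODE M21 on GRCm38 by Ensembl identifier, which matched 42462 of 43346 genes. The 26345 entries with no Ensembl identifier held 0.0426% and 0.0539% of the counts but 18255 and 22456 TPM, and stayed out of library sizes and tests.

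Expected counts were rounded and tested as the report describes, with TMM sizes from edgeR 4.0.16 and a pseudocount of 0.5 for log2 ratios. Intervals are exact and cover counting error only. On simulated counts of replicate 2 against replicate 1 with 15392 genes and counting error only, the test called 67 of 100 genes changed 1.5-fold, 76 of 100 changed 2-fold and 8 of 15192 unchanged ones. Runs of 36 bases were compared between GENCODE M21 transcripts. RefSeq promoter windows, GRCm38.p6, matched 8 members. The members and lists were chosen with earlier results of these data known. Genes were named by rule: all members, near copies that have values in the tables, and of each list the 2 highest and up to 4 not detected, lowest first. Of each member, transcripts of at least 5% mean share were named, up to 4, and a few others where a result turned on them. Alternatives covered scaling, filters, thresholds, estimates, the negative binomial test and each replicate alone. A few of the marker genes are not reported here.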

Additional observations from a re-analysis of the deposited data

How the results depend on the processing

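The 8 detected members stayed 8 at 0.5 TPM, at 1 FPKM and in either replicate alone, and were 7 at 5 TPM. The 5 calls between the libraries stayed 5, in the same 5 members, with DESeq2 size factors, library totals, posterior mean counts and a pseudocount of 5. Over all genes these settings called 4683 and 4675 of 15340, 4603 of 15523 and 4693 of 15340, in that order. With no filter the same 5 were called, beside 4474 of 22234 genes. With a minimum of 100 counts they were 5 of 8 members tested, without Tet1, beside 4215 of 11046 genes. The negative binomial exact test called 0 members and 389 genes, against 4693 genes by the exact binomial test. The median member level of 45.4 TPM was 32.2 in FPKM, and, in alternatives chosen after seeing the data, 30.1 with reads at the length of the leading complete transcript and 32.1 over complete coding transcripts alone. The complete coding share of summed member TPM, 79.8% on average, was 96.1% by counts. The Dnmt1 share of methyltransferase TPM, 65.0% on average, was 61.8% by counts and 63.0% by posterior mean TPM. From deposited TPM, an added alternative, the log2 ratios of Dnmt3a and Mbd2 turned to -0.069 and -0.017, neither being called by counts. The values in FPKM and by counts are in other units than TPM, and the cause of the remaining shifts was not tested. No paired analysis was possible because both libraries belong to 1 group, and leaving 1 out leaves no difference to test. Depth limits Tet1, at 36 and 35 counts, and the Dnmt3b forms. At 5 TPM 52 of the 56 detected list genes remained above the threshold.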

Other observations

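Of 14 germline genes that are known to be kept silent by DNA methylation in body tissues, none reached 1 TPM in both libraries, beside 48.0% of all protein-coding genes. This list too was chosen with earlier results of these data known, so the shares are not a test of it. The highest were the testis bromodomain gene Brdt, at 0.80 TPM in replicate 1 and 0.41 TPM in replicate 2 from 35 and 21 counts, and Stra8, a gene of meiotic entry, at 0.42 and 0.56 TPM from 8 and 12 counts. The helicase gene Ddx4, named after its value was seen, had 14 and 10 counts. Of the 14 genes, 7 had 0 counts in both libraries, among them Mael, Sycp3, Sohlh2 and Tex101, the first 4 of them in list order. A count of 0 allows up to 3 counts, which in replicates 1 and 2 corresponds to 0.116 and 0.104 TPM for Mael, 0.176 and 0.159 for Sycp3, 0.0788 and 0.0709 for Sohlh2, and 0.181 and 0.162 for Tex101. Of the 3 germline genes with enough counts to be tested, the exact binomial test called 0, beside 30.6% of all genes. The negative binomial exact test also called 0, beside 2.54% of all genes. At counts this low a difference between the libraries could be missed. Methylation of these genes was not measured, so their low levels are given as values only.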
